A study of Mus musculus with 4 samples.

Results

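Adipose stromal progenitor genes are genes that mark the fibroblast-like cells from which fat cells are made. A set of 10 was chosen by symbol from the deposited expression table: Pdgfra, Pdgfrb, Dpp4, Pi16, Cd55, Ly6a, Cd34, Thy1, Fap and Dcn. All 10 were found among its 17335 genes, and all 10 reached 0.1 FPKM in at least 1 library, as did 15839 genes in all. FPKM is the number of sequenced fragments scaled by transcript length and by library size, so levels can be compared between genes. The table holds gonadal white adipose tissue (gWAT) of female mice that had eaten a high-fat diet (HFD) for 18 weeks. Floxed controls (fl/fl) carry loxP sites in both copies of Dnmt1, the enzyme that copies DNA methylation onto new DNA strands, and have intact Dnmt1. AD1KO mice carry the same floxed Dnmt1 together with Cre driven by the adiponectin promoter, which deletes Dnmt1 in adipocytes and is not directed at stromal progenitors. RNA of 4 animals per group was pooled in equal amounts, so each group is 1 library, and the age of the animals is not given in the sources used here.

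White fat holds lipid-filled adipocytes in a stroma of blood vessels, immune cells and fibroblast-like cells that carry the receptor PDGFRα. Among these, DPP4+ interstitial progenitors lie in the connective tissue sheath around the fat and give rise to ICAM1+ preadipocytes, which are committed to becoming adipocytes, while a further CD142+ population has been described as a regulator of adipogenesis. Several markers of these cells are shared: endothelial cells carry CD34 and Sca-1 (Ly6a), mural cells of vessels carry PDGFRβ, and mouse T cells carry Thy1, Sca-1 and DPP4. In pooled whole tissue, fewer cells of a type and less RNA per cell cannot be told apart.

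Reads per gene, estimated from FPKM and transcript length, summed to 17692753 in fl/fl and 17641434 in AD1KO. Dnmt1 stood at 6.99 FPKM in the fl/fl library and 3.33 in that of AD1KO, a log2 ratio (AD1KO over fl/fl) of -1.07 (95% counting interval -1.27 to -0.87, about 635 and 302 reads). That value covers the whole transcript and the whole tissue, not the floxed exons in adipocytes alone. The 5 adipocyte markers, which define this tissue, were all present and all higher in AD1KO, summing to 5027 FPKM in fl/fl and 8834 in AD1KO. Each was higher by a log2 ratio of 0.5 or more, as were 14.3% of all tested genes. With 1 library per group no difference below has a replicate check and no p-value is given. The intervals rest on the estimated reads, cover counting error only, and compare the libraries rather than the genotypes.

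The 10 genes spanned 138-fold in level in fl/fl. In fl/fl they ran, from the highest to the lowest, Dcn at 829.5 FPKM, Ly6a at 389.7, Pi16 at 84.7, Cd34 at 55.1, Thy1 at 49.4, Cd55 at 32.4, Pdgfrb at 8.20, Pdgfra at 8.11, Dpp4 at 7.23 and Fap at 6.00. The counting intervals of neighbours in this order did not overlap down to Cd55, whereas those of Pdgfrb and Pdgfra, of Pdgfra and Dpp4, and of Dpp4 and Fap did. In AD1KO the order was Dcn at 951 FPKM, Ly6a at 158, Cd34 at 56.5, Pi16 at 52.2, Cd55 at 36.3, Thy1 at 30.3, Dpp4 at 10.3, Pdgfrb at 8.83, Pdgfra at 7.23 and Fap at 7.10. Pi16 and Thy1 each lost a place there and Dpp4 moved above the PDGF receptors, while the intervals of Cd34 and Pi16, and of Pdgfra and Fap, overlapped. The plot of levels by library shows the 3 genes whose AD1KO points lie well to the left of their fl/fl points.

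**Figure D1:**
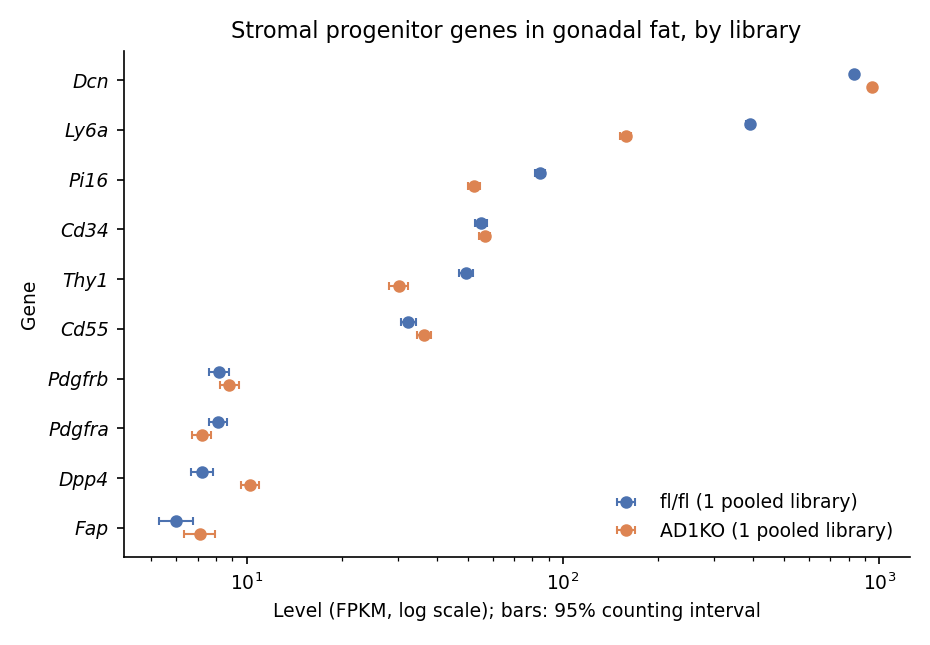
Level of each of the 10 genes in FPKM (log axis) in the fl/fl library (blue) and the AD1KO library (orange), with 95% counting intervals as bars, 1 pooled library per group. Ly6a, Pi16 and Thy1 lie lower in AD1KO, at 158, 52.2 and 30.3 FPKM, while Dcn, the most abundant, lies slightly higher.

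On the log2 scale the ratios of AD1KO over fl/fl ran from -1.31 for Ly6a to 0.50 for Dpp4, with a median of 0.07. The median over all 15839 tested genes was -0.04, and their quartiles were -0.36 and 0.27. The limit in the methods of the study, 0.5 on the log2 scale either way, was reached by 3 of the 10 genes in the lower direction (Ly6a, Thy1 and Pi16), against 19.1% of all tested genes. In the higher direction it was reached by 1 of the 10 (Dpp4), against 14.3% of all tested genes. With 10 genes neither count stands far from those background shares, so the counts are not a result about the group. When the whole counting interval had to lie past 0.5, the same 3 genes were lower, against 8.31% of tested genes, and 0 were higher, against 4.18%. The remaining 6 genes, Pdgfra, Pdgfrb, Cd55, Cd34, Fap and Dcn, had ratios between -0.17 and 0.24.

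**Figure D2:**
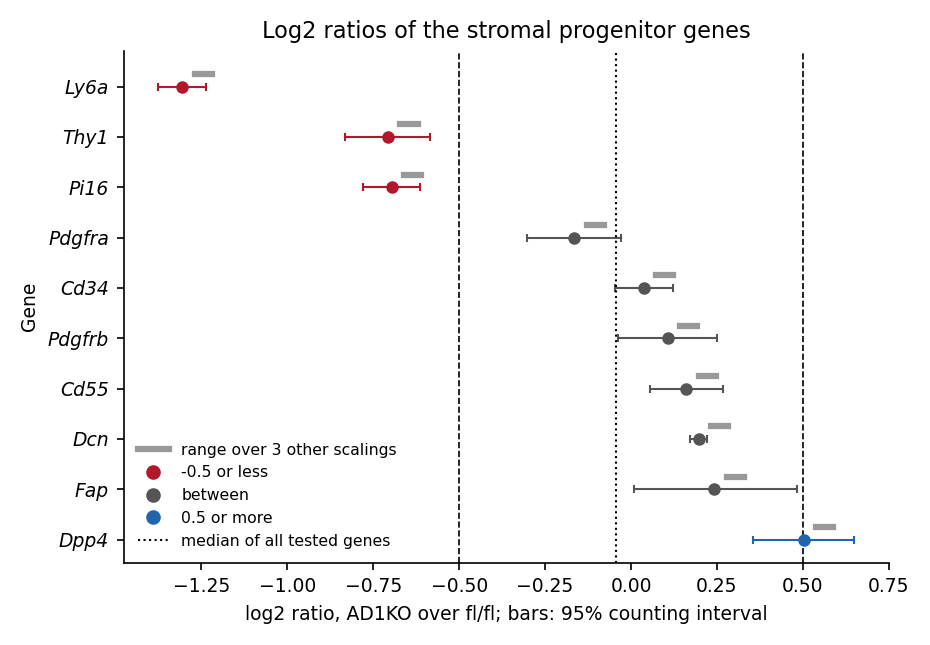
Log2 ratio of AD1KO over fl/fl for each gene (points) with its 95% counting interval (bars), dashed lines at 0.5 either way, a dotted line at the median of all tested genes (-0.04), and grey bars for the range over 3 other ways of scaling the libraries. Ly6a, Thy1 and Pi16 lie wholly below -0.5, and the interval of Dpp4 runs across 0.5.

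The PDGF receptors are tyrosine kinases that bind platelet-derived growth factor dimers; PDGFRα marks adipose progenitors, and PDGFRβ marks mural cells and part of the progenitors. Pdgfra (gene 18595, chr5:75548316-75594229 of mm9, plus strand) stood at 8.11 FPKM in the fl/fl library and 7.23 in that of AD1KO, about 924 and 823 reads. Its log2 ratio was -0.17 (interval -0.30 to -0.03). Pdgfrb (gene 18596, chr18:61204804-61244715, plus strand) was at 8.20 and 8.83 FPKM, about 762 and 819 reads, with a log2 ratio of 0.11 (interval -0.04 to 0.25). Neither receptor reached 0.5 in either direction. The ratio of Pdgfrb to Pdgfra, which no scaling of the libraries can change, was 1.01 in fl/fl and 1.22 in AD1KO, a difference of 0.27 on the log2 scale with an interval from 0.07 to 0.47. Of the 8 mural cell markers, which share a cell type with Pdgfrb, 0 were lower and 3 higher, against 19.1% and 14.3% of tested genes. Their median log2 ratio was 0.17. Their summed level was 62.8 FPKM in fl/fl and 92.7 in AD1KO, a rise that rests in large part on Des. Rgs5, a pericyte regulator of G protein signalling, was at 23.8 and 26.2 FPKM (log2 ratio 0.14), and Notch3, a receptor of mural cells, at 5.47 and 5.05 (-0.12). The smooth muscle filament gene Des differed most in absolute level, from 16.2 to 36.3 FPKM (log2 ratio 1.16, interval 1.04 to 1.28), and Higd1b had the highest ratio, 1.21, from about 21 and 48 reads.

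Of the 4 PDGF ligand genes, Pdgfb alone passed 0.5, in the lower direction, against 19.1% lower and 14.3% higher of all tested genes. PDGF-B binds both receptors, is made by endothelial cells and macrophages among others, and recruits mural cells to vessels. Pdgfb went from 16.8 FPKM in fl/fl to 10.1 in AD1KO, a log2 ratio of -0.74 (interval -0.90 to -0.58). Pdgfa, whose product binds PDGFRα, was at 11.7 and 14.2 FPKM (log2 ratio 0.28, interval 0.10 to 0.46). Pdgfc was at 4.84 and 5.23 FPKM and Pdgfd at 4.15 and 4.71, with log2 ratios of 0.11 and 0.18 and intervals that included 0. The 8 blood endothelial markers had log2 ratios from 0.10 (Pecam1, 30.1 and 32.1 FPKM) to 0.49 (Kdr, 3.72 and 5.22 FPKM), none at 0.5, and summed to 157 and 189 FPKM. Cldn5, a tight junction gene and the most abundant of them, was at 44.6 and 53.3 FPKM (0.26). The 8 macrophage markers were all lower by 0.5 or more, against 19.1% of all tested genes. Their median was -0.89, and they summed to 3440 FPKM in fl/fl and 1710 in AD1KO. Their part in the lower Pdgfb was not tested.

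Dpp4, Pi16 and Cd55 mark the interstitial progenitors, and they did not move together. DPP4 is a membrane-bound protease that removes dipeptides from chemokines and incretins, PI16 is a secreted or membrane-anchored protein of the CAP family, and CD55 is a lipid-anchored protein that speeds the decay of complement convertases. The bases before their transcription starts are shown for their CG dinucleotides, on which Dnmt1 acts. Any link between these sites and the levels of the 3 genes was not tested. The windows are the 250 bases upstream of the RefSeq start on build GRCm38.p6, 5′ to 3′ on the strand of the gene, with each CG in capitals: chr2:62412232-62412481, minus strand, for Dpp4, chr17:29318632-29318881, plus strand, for Pi16, and chr1:130462745-130462994, minus strand, for Cd55.
Dpp4: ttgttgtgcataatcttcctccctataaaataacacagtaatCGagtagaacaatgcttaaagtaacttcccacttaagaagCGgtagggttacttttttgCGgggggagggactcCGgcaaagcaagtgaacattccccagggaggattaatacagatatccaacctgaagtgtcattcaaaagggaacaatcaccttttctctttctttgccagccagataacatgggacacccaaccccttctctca
Pi16: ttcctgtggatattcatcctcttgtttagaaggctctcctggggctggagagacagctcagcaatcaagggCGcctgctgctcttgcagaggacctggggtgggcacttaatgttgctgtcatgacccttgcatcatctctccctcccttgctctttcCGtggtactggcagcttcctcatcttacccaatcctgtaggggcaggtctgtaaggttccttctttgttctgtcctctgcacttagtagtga
Cd55: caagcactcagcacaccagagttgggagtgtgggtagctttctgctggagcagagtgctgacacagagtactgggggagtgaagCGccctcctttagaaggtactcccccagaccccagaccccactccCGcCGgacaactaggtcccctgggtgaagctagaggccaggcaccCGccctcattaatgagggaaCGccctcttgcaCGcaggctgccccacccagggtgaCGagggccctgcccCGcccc
The Dpp4 window holds 4 CG dinucleotides, that of Pi16 holds 2 and that of Cd55 holds 8, beside a median of 6 over 32851 such windows. At least as many as in Pi16 were held by 81.2% of all windows, and at least as many as in Cd55 by 43.0%. RefSeq entries were matched for 5 of the 10 genes, of which Pdgfra and Cd34 held 4 and 6; the others are Pdgfrb, Ly6a, Thy1, Fap and Dcn. The table measures RNA and not methylation, so no methylation level goes with these sites.

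Dpp4 (gene 13482, chr2:62168130-62250288 of mm9, minus strand) stood at 7.23 FPKM in the fl/fl library and 10.3 in that of AD1KO, about 646 and 914 reads. Its log2 ratio of 0.503 lay just past 0.5, with an interval from 0.36 to 0.65, and it was 0.45 when 1 FPKM was added to each level in place of 0.01, so the call rests on the setting while the higher level does not. Pi16 (gene 74116, chr17:29455822-29466358, plus strand) went the other way, from 84.7 to 52.2 FPKM, about 3163 and 1949 reads, a log2 ratio of -0.70 (interval -0.78 to -0.62). Cd55 (gene 13136, chr1:132335604-132359321, minus strand) was at 32.4 and 36.3 FPKM, about 1376 and 1538 reads, with a log2 ratio of 0.16 (interval 0.06 to 0.27). Some reads of Cd55 may belong to its near copy Daf2, which held 13.3% of the 50-base stretches of the Cd55 transcript. The ratios between the 3 genes carry the contrast most directly. Pi16 was 11.7 times as abundant as Dpp4 in fl/fl and 5.1 times in AD1KO, a difference of -1.20 on the log2 scale (interval -1.37 to -1.03). Cd55 was higher relative to Pi16, by 0.86 (interval 0.72 to 0.99) and lower relative to Dpp4, with a difference of -0.34 (interval -0.52 to -0.16). Each of these intervals lies on a single side of 0, and none depends on how the libraries are scaled.

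A list of 14 further genes of interstitial progenitors had a median log2 ratio of -0.31, against -0.04 for all tested genes. There were 12 of 14 under 0, as Pi16 was and Dpp4 was not, beside 53.8% of all tested genes. Only 3 reached -0.5 and 1 reached 0.5, beside background shares of 19.1% and 14.3%. With the whole interval past 0.5 there were 0, beside 8.31% lower and 4.18% higher of all tested genes. Mfap5, a microfibril protein, was at 79.2 and 68.3 FPKM (log2 ratio -0.21), and Cd248, a surface glycoprotein of fibroblasts and pericytes, at 56.5 and 47.0 (-0.26). The lowest ratio was that of Uchl1, a ubiquitin hydrolase, at 7.88 and 4.56 FPKM (-0.79, interval -1.20 to -0.39). Sema3c, a secreted guidance factor, was highest, from 16.4 to 24.2 FPKM (0.56, interval 0.46 to 0.66). Their summed level was 311 FPKM in fl/fl and 269 in AD1KO.

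Genes of the other progenitor states went both ways. Among 13 genes of committed preadipocytes, 2 were lower and 3 higher, near the background shares of 19.1% and 14.3%, with a median of 0.37. Icam1, the adhesion molecule by which these cells are named and which leukocytes and endothelium also carry, was lower, from 25.8 to 12.5 FPKM (-1.05, interval -1.20 to -0.90). That list includes Fabp4 (11151 and 15920 FPKM, log2 ratio 0.51) and Lpl (2436 and 3195 FPKM, 0.39), which mature adipocytes express too. Zfp423, a transcription factor of preadipocyte commitment, went from 6.52 to 11.00 FPKM (0.75, interval 0.59 to 0.92), while the chemokine Cxcl14 went from 18.3 to 6.46 FPKM (interval of the log2 ratio -1.74 to -1.26). Of the 7 genes of CD142+ cells, 0 were lower and 3 higher, with a median of 0.49. Fmo2, a monooxygenase, went from 8.25 to 16.4 FPKM (0.99, interval 0.86 to 1.13) and Igfbp3, an insulin-like growth factor binding protein, from 13.7 to 25.6 (0.90, interval 0.75 to 1.05). F3, the gene of CD142 itself, was at 10.7 and 11.9 FPKM (0.16, interval -0.06 to 0.37); Icam1 and F3 are named here after their values were seen. Mgp, an inhibitor of calcification and the most abundant of that list, was at 565 and 614 FPKM (0.12), and Gdf10, a growth factor of the TGF-β family, at 5.52 and 5.11 (-0.11, interval -0.33 to 0.11).

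Ly6a, Cd34 and Thy1 are surface markers used to sort progenitors that other cells also carry, and they split. Sca-1, the product of Ly6a, is a lipid-anchored protein of stem and progenitor cells, endothelium and lymphocytes, and is induced by interferon. Ly6a (gene 110454, chr15:74825308-74828064, minus strand) stood at 389.7 FPKM in the fl/fl library and 158 in that of AD1KO, about 5775 and 2334 reads. Its log2 ratio was -1.31 (interval -1.38 to -1.24), and 5.7% of all tested genes had a lower ratio. Thy1 (gene 21838, chr9:43851467-43856662, plus strand), a lipid-anchored glycoprotein of fibroblasts, neurons and T cells, was at 49.4 and 30.3 FPKM, about 1419 and 868 reads. Its log2 ratio was -0.71 (interval -0.83 to -0.58). Cd34 (gene 12490, chr1:196765015-196787486, plus strand), a sialomucin of progenitors and endothelium, was at 55.1 and 56.5 FPKM, about 2307 and 2365 reads, with a log2 ratio of 0.04 (interval -0.05 to 0.12). The Cd34 interval holds no difference above 0.12 in either direction as far as counting error goes. Relative to Cd34, Thy1 was lower, with a difference of -0.74 (interval -0.89 to -0.60), and Cd34 was 0.141 times the level of Ly6a in fl/fl and 0.359 times in AD1KO, a difference of 1.34 (interval 1.23 to 1.45). Thy1 and Ly6a also differed from each other, by 0.60 (interval 0.46 to 0.74), Ly6a being the lower.

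Genes of T cells and genes induced by interferon moved with Ly6a and Thy1. All 8 T cell markers were lower, with a median log2 ratio of -1.67 and a summed level of 90.3 FPKM in fl/fl and 30.8 in AD1KO. None of the 8 was listed at 0. Cd3g, a chain of the T cell receptor complex, went from 25.8 to 7.12 FPKM (-1.85, interval -2.17 to -1.55), and Cd2, an adhesion receptor, from 20.6 to 10.3 (interval -1.27 to -0.75). Cd5, a T cell coreceptor, was lowest, at 5.06 and 1.08 FPKM (-2.22). Thy1, at -38.7% in FPKM, had a higher ratio than each of these T cell genes. Of 12 interferon-inducible genes 11 were lower, against 19.1% of all tested genes, with a median of -1.15. Irf1, a transcription factor, went from 74.7 to 20.1 FPKM (-1.90, interval -2.02 to -1.78), and Bst2, which tethers virions, from 189.7 to 77.0 (-1.30, interval -1.41 to -1.20), close to the ratio of Ly6a. Ifi27 was the exception, at 349 and 482 FPKM (0.47). The part of T cells and of interferon-inducible expression in the lower Ly6a and Thy1 was not tested.

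The Ly6 family, to which Ly6a belongs, lies in a cluster on chromosome 15 and encodes small lipid-anchored surface proteins. Apart from Ly6a, 7 of the 9 family genes listed were in the table, with a median of -0.61. Of these, 5 were lower and 1 higher, against 19.1% and 14.3% of all tested genes. Ly6e, the most abundant, was at 431 and 299 FPKM (log2 ratio -0.53, interval -0.57 to -0.49). Ly6c1, carried by endothelium and monocytes, was at 250.2 and 164 FPKM (-0.61, interval -0.69 to -0.53), and Ly6c2, carried by monocytes, at 39.2 and 9.62 (-2.03, interval -2.33 to -1.74). Ly6i, the nearest tested gene to Ly6a with a position, at 11.4 kb, was at 2.73 and 0.53 FPKM, about 48 and 9 reads (-2.34, interval -3.63 to -1.37). Ly6d was at 20.2 and 14.8 FPKM (-0.44), Ly6k at 1.12 and 0.61 from about 13 and 7 reads (-0.87, interval -2.46 to 0.54), and Ly6h alone was higher, at 4.20 and 7.44 (0.82, interval 0.38 to 1.30). The members of the cluster that share most sequence are uncertain: 31.9% of the 50-base stretches of Ly6c1 also occur in Ly6c2, and 4.4% of those of Ly6a occur in Ly6i or Ly6c2. No stretch of that length was shared by Thy1, Cd34, Pi16, Dpp4, Fap, Dcn, Pdgfra or Pdgfrb with another coding transcript.

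Fap and Dcn are the fibroblast protease and matrix genes of the set, and their log2 ratios were slightly above 0. Fibroblast activation protein is a membrane protease related to DPP4, and decorin is a small leucine-rich proteoglycan that binds collagen and growth factors. Fap (gene 14089, chr2:62339000-62412132, minus strand) stood at 6.00 FPKM in the fl/fl library and 7.10 in that of AD1KO, about 272 and 322 reads, with a log2 ratio of 0.24 (interval 0.0077 to 0.48). Dcn (gene 13179, chr10:96942245-96980777, plus strand) was at 829.5 and 951 FPKM, about 25637 and 29351 reads, with a log2 ratio of 0.20 (interval 0.17 to 0.22). Dcn was 138 times as abundant as Fap in fl/fl and 134 times in AD1KO, and the difference of -0.05 had an interval from -0.29 to 0.19. The level of Dcn was above that of 99.3% of all tested genes in fl/fl and 99.6% in AD1KO.

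Genes listed with the DPP family, other than Dpp4 and Fap, did not reach 0.5 in either direction at levels that can be read. Dpp7 was at 29.5 and 25.8 FPKM (log2 ratio -0.19), Dpp8 at 12.9 and 10.9 (-0.25), Dpp9 at 13.6 and 11.1 (-0.29), Prep at 14.8 and 15.1 (0.03) and Prepl at 4.46 and 5.93 (0.41, interval 0.18 to 0.65). Dpp6 passed 0.5 from about 9 and 17 reads, with an interval from -0.33 to 2.27, and Dpp10 was listed at 0 in both libraries. Between Dpp4 and Fap on chromosome 2 lies Gcg, the gene of proglucagon. Gcg had 2.55 FPKM, some 45 reads, in the fl/fl library and a listed 0 in the other, and the counting interval of its log2 ratio ends at -3.55.

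The decorin family binds collagen fibrils in the matrix. Of 9 other small leucine-rich proteoglycans, 1 was lower and 3 were higher, against 19.1% and 14.3% of all tested genes. Their median was 0.18. Prelp, which anchors basement membrane to connective tissue, went from 431 to 678 FPKM (0.65, interval 0.63 to 0.67), and Fmod, which regulates collagen fibrils, from 12.7 to 21.6 (0.77, interval 0.63 to 0.92). Bgn, the closest relative of Dcn, was at 294 and 288 FPKM (-0.03), and Omd at 1.42 and 0.93 from about 42 and 27 reads (-0.61, interval -1.39 to 0.10). Lum, the neighbour of Dcn on chromosome 10 at 47.4 kb, was at 163 and 186 FPKM, and its log2 ratio of 0.18 had an interval (0.13 to 0.24) that included the 0.20 of Dcn.

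Most genes common to all fibroblasts lay between the limits. Of 15 pan-fibroblast genes, 0 were lower and 1 higher, against 19.1% and 14.3% of all tested genes. Their median was 0.20. The most abundant, Gsn, an actin-severing protein that adipocytes share, was at 1666 and 1925 FPKM (0.21), and Vim, the intermediate filament of fibroblasts and leukocytes, at 1250 and 960.3 (-0.38). Mmp2, a gelatinase, was at 66.0 and 47.6 FPKM (-0.47, interval -0.55 to -0.40), and Gpc3, a heparan sulphate proteoglycan, at 14.8 and 24.6 (0.73, interval 0.58 to 0.89). Of 12 genes of activated fibroblasts, 4 were lower and 1 higher, against the same shares, with a median of -0.16. The lowest was Tgfb1, a fibrogenic growth factor that macrophages also make, from 101 to 56.4 FPKM (-0.84, interval -0.92 to -0.76). Postn, a matricellular protein, was at 118 and 87.8 FPKM (-0.43), and Acta2, the smooth muscle actin, at 121 and 164 (0.44).

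Relatives of Pi16 and Cd55 gave no common direction. Among 4 tested CAP domain proteins, 2 were lower and 1 higher, against 19.1% and 14.3% of all tested genes. Glipr1, which myeloid cells express, went from 71.5 to 22.9 FPKM (-1.64, interval -1.81 to -1.47), Glipr2 from 16.7 to 9.20 (-0.86, interval -1.07 to -0.66), and Crispld2 from 8.71 to 13.2 (0.59, interval 0.45 to 0.74). Of 6 complement regulators, 0 were lower, and the 2 higher were at under 0.5 FPKM in both libraries. Serping1, the C1 inhibitor, was at 518 and 437 FPKM (-0.25), and Cd59a, which blocks the membrane attack complex, at 170.5 and 226 (0.41, interval 0.35 to 0.46). Beside Pi16, Mtch1 at 2.7 kb was at 121 and 131 FPKM (0.12) and BC004004, on the other side, at 53.3 and 54.0 (0.02). Beside Thy1, Rnf26 at 17.7 kb was at 11.0 and 11.1 FPKM (0.02). Trim29, the nearest tested gene on the other side with a position in the annotation used, but 707.3 kb away, was at 3.78 and 3.53 (-0.10). Neither pair of neighbours showed the lower level of Pi16 or Thy1. Csf1r, a macrophage receptor gene 20.5 kb from Pdgfrb, was at 127 and 72.8 FPKM (-0.81). Kit, 376.7 kb downstream of Pdgfra, was at 2.08 and 1.35 (-0.62, interval -0.97 to -0.28). Among the other nearest tested genes with a position, Chic2 before Pdgfra had a log2 ratio of -0.40. Slc6a7 before Pdgfrb had -0.44 from about 25 and 18 reads, and Psmd14, 529.7 kb before Dpp4, had 0.03. Plxna2 before Cd34 had 0.39, Cd46 after it 1.09 from about 7 and 15 reads, and C4bp after Cd55 0.52 from about 9 and 13 reads. Ifih1 after Fap had -0.34, and Btg1, 856.8 kb before Dcn, had -0.30. Cxcr4, a chemokine receptor gene of leukocytes that lies 1846.7 kb before Cd55, was at 13.1 and 6.53 FPKM.

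The 10 genes share a place at the cell surface or outside it. The table annotates 5 of them, Pdgfra, Cd55, Ly6a, Cd34 and Thy1, to the external side of the plasma membrane. Of the 225 tested genes with that term, 114 (50.7%) were lower and 33 (14.7%) higher, with a median of -0.52, and 2 of the 5 stromal genes in it were lower. The term holds many leukocyte receptors. The 3 genes annotated to the extracellular space, Pi16, Fap and Dcn, belong to 930 tested genes of which 22.2% were lower and 25.3% higher, with a median of 0.05. These terms were picked because the genes carry them, and the shares are descriptions.

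**Figure D3:**
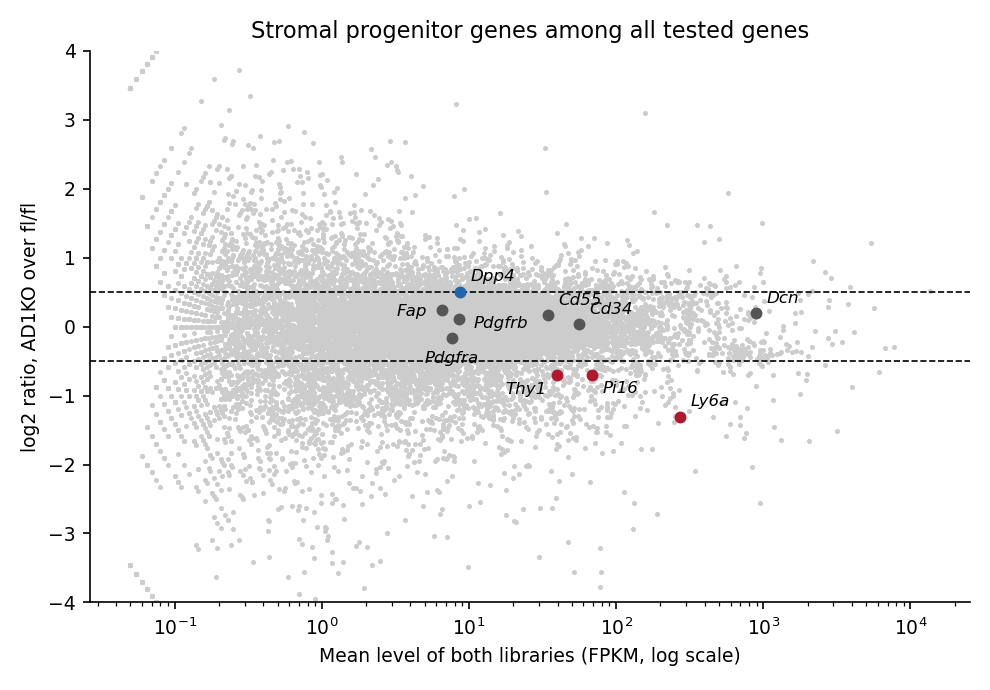
Log2 ratio of AD1KO over fl/fl against the mean level of both libraries (FPKM, log axis) for all 15839 tested genes (grey), with the 10 stromal genes coloured red where lower, blue where higher and dark grey between; dashed lines mark 0.5 either way, and 277 genes lie outside the plotted ratios. Each of the 10 lies above 6 FPKM, where the spread of ratios from few reads is small, and Ly6a lies farthest from 0.

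The stromal genes had no common direction to set beside those of other cell types. Their ratios ran from -1.31 to 0.50, with a median of 0.07. The log2 ratio of their summed level had the opposite sign, -0.16, from 1470.3 FPKM in fl/fl to 1317 in AD1KO. Dcn and Ly6a make up most of that sum. Ly6a alone fell by more than the sum did, from 389.7 FPKM in fl/fl to 158 in AD1KO. List medians were -1.67 for T cell markers, -0.89 for macrophage markers, 0.30 for blood endothelium, 0.17 for mural cells, 0.80 for adipocytes and 0.76 for mesothelium. Fcgr1 was the lowest macrophage marker (41.2 and 10.1 FPKM, log2 ratio -2.03), and Cd14 the highest (33.6 and 21.7, -0.63). The most abundant macrophage genes, Lyz2 and Cd68, had log2 ratios of -0.98 and -1.11. Upk3b, a mesothelial plaque protein, went from 30.6 to 64.3 FPKM (1.07, interval 0.97 to 1.18), Krt19 from 21.1 to 35.8 (0.76), and Krt8 was at 5.32 and 6.42 (0.27, interval -0.04 to 0.58). Of the adipocyte markers, Adipoq went from 1911 to 3318 FPKM (0.80), Cidec from 1487 to 2885 (0.96) and Plin1 from 245 to 357 (0.54). Epithelial markers were scarce, summing to 10.5 and 6.78 FPKM, with Krt18 at 5.72 and 5.91 FPKM (0.05) and the oviduct gene Ovgp1 at 3.51 and 0.17 (-4.29, interval -5.74 to -3.32). Because FPKM values are shares of a library, a larger share of adipocyte and a smaller share of leukocyte RNA moves with every ratio above, and its part in the 10 genes was not tested.

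**Figure D4:**
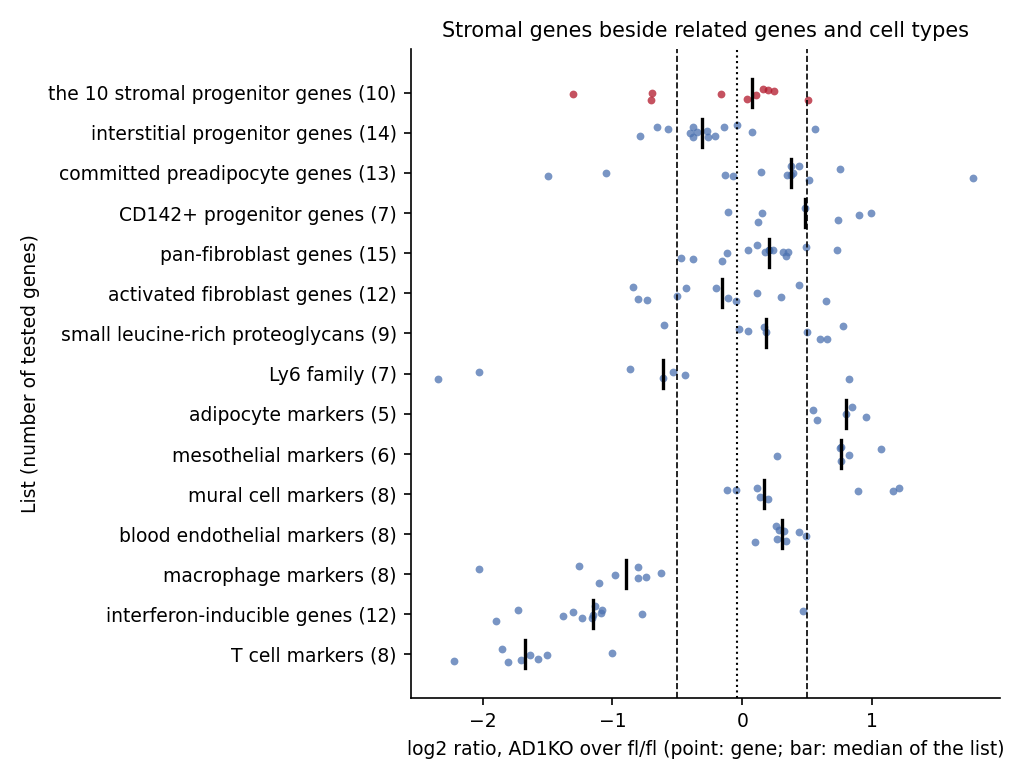
Log2 ratio of AD1KO over fl/fl for every tested gene (points) of the 10 stromal progenitor genes (red) and of 14 lists of related genes and cell types (blue), with the median of each list as a black bar, the number of tested genes in brackets, dashed lines at 0.5 either way and a dotted line at the median of all tested genes (-0.04). Ly6a, Thy1 and Pi16 lie at -1.31, -0.71 and -0.70, and the other 7 between -0.17 and 0.50.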

How the data were processed

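RNA was sequenced by the authors' provider on BGISEQ-500 and aligned to mm9; the submitters' processing notes name mm9 and mm10, and the program that gave expression is not given in the sources used here. The deposited values are FPKM per gene, which the authors wrote with 0 as 0.01. The deposited table also holds the authors' fold changes, p-values and FDR, which were not used, and the bisulfite samples were not analysed here.

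Columns were matched to groups by library name. Values of 0.01 were set to 0, and log2 ratios were computed on FPKM plus 0.01 for the 15839 genes with at least 0.1 FPKM in 1 library. Depth was found from FPKM alone: low values of short transcripts fall near whole reads at 17540000 (fl/fl) and 17520000 (AD1KO) reads with 115 bases taken off each length, where 73.8% of 302 and 68.1% of 310 values lay within 0.1 of a whole number. Reads so estimated gave Clopper-Pearson intervals at 95%, Poisson intervals for levels and conditional odds ratio intervals for pairs; all cover counting error only. These steps were tested on simulated data. Tests had been planned as descriptions, since each group is 1 library.

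The 10 genes and the lists were chosen with earlier results of these data known. Named genes are the 10, all PDGF ligand, DPP and Ly6 family genes, the 2 most abundant and the lowest and highest ratio at 1 FPKM or more in each list, Dnmt1, and the nearest tested gene on each side of the 10. Of the genes named by this rule, 1 is left out and not reported here. Positions are from GENCODE on mm9, upstream sequences from RefSeq on GRCm38.p6. Neighbours were sought only among tested genes whose symbol has a position in that GENCODE annotation, so a nearer tested gene may be missed. Alternatives rescaled the libraries by upper quartile, median of ratios or TMM (trimming 30% of ratios and 5% of levels), other pseudocounts and filters, and stricter calls. Estimated reads, pairs, shared 50-base stretches, CG counts and annotation terms were added after the data were seen. Tables were handled in pandas 2.3.3 under Python 3.11.15, intervals came from SciPy 1.17.1 with NumPy 2.4.6, and plots from Matplotlib 3.10.9.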

Additional observations from a re-analysis of the deposited data

How the results depend on the processing

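No paired analysis was possible because each group is 1 pooled library; for the same reason no replicate could be left out. Ly6a, Thy1 and Pi16 were lower by at least 0.5 in each of 6 alternatives of scaling, pseudocount and estimated reads (the reads chosen after seeing the data), with log2 ratios from -1.31 to -1.22, -0.71 to -0.62 and -0.70 to -0.61. Pdgfra stayed under 0 (-0.17 to -0.08), and the other 6 stayed above it; those of Cd34 ran from 0.04 to 0.12. Dpp4 ran from 0.45 to 0.59 and passed 0.5 in 4 of the 6. The number of the 10 genes that were higher was 0 with a pseudocount of 0.1 or 1 FPKM, with a limit of 1, and with the whole counting interval past 0.5. A limit of 1 left 1 lower, Ly6a. Of the genes in the other lists, 48 lower and 30 higher became 29 and 5 at a limit of 1. Over all 15839 tested genes, 3029 lower (19.1%) and 2265 higher (14.3%) became 1417 and 910. The drop in the lists is a description and not a result about them.

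Over all tested genes, 3029 were lower and 2265 higher; a limit of 1 gave 1417 and 910, a pseudocount of 1 FPKM 1661 and 965, the whole interval past 0.5 gave 1316 and 662, and a minimum of 1 FPKM left 1281 higher. Upper quartile scaling raised ratios by 0.09 and turned the balance to 2621 lower and 2771 higher. Of the genes past 0.5 in either direction, 48.6% were then lower, against 57.2% as deposited. At this depth the counting intervals of Pdgfrb and Cd34 included 0, and that of Fap, the gene with the fewest reads, was the widest.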
